A study of Mus musculus with 11 samples.

Results

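*Dmrta2*, *Dmrt3*, *Dmrta1*, *Dmrt1* and *Dmrt2* are 5 mouse genes of the *Dmrt* family, which encode transcription factors that bind DNA through a DM domain. They were taken from 21755 annotated protein-coding genes as a list of names, selected on the H3K27me3 peak values of cortex against the 3 ganglionic eminences in the same lists that are analyzed here. Those values therefore describe the 5 genes, and no test was made on them. For each gene, peaks were read over the gene body and 10 kb either side (GRCm38, also called mm10), which is called its window.

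*Dmrt3*, *Dmrta1* and *Dmrta2* are known for their graded expression in progenitors of the pallium, the dorsal telencephalon that forms the cerebral cortex, with the highest levels on its medial and caudal side. There *Dmrta2* and *Dmrt3* take part in forming the cortical hem, the signaling center at the dorsal midline, and in holding back genes of the subpallium such as *Gsx2*. *Dmrt1* is best known for testis differentiation and *Dmrt2* for somite and skeletal muscle development. H3K27me3 is a methylation of histone H3 made by a Polycomb complex, and it typically lies over the CpG-rich starts of developmental genes that a tissue keeps silent.

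H3K27me3 was mapped by CUT&Tag, which cuts and tags the DNA around marked nucleosomes with a transposase held there by an antibody, in wild-type C57BL/6J mouse embryos. The 11 samples came from the embryonic somatosensory cortex (CTX, 3 samples) and from the lateral (LGE, 3 samples), caudal (CGE, 3 samples) and medial (MGE, 2 samples) ganglionic eminences, the ventral zones that produce striatal neurons and interneurons. Their titles number them under 2 replicates per region, and the study states 2 biological replicates for each. Outside MGE, 2 samples of a region share a replicate number, and whether they are libraries of the same tissue is not stated. The protocol in the labels names embryos of E12.5 and E14.5 without tying an age to a sample, the text of the study places this assay at E12.5, and its methods describe pooling several embryos per region. The protocol also mentions that nuclei of the 4 regions were mixed, although each sample is labeled as 1 region, and the lists are described here by those labels.

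Broad peaks were called by the authors after merging the libraries of each region, so there is 1 peak list per region, with no replicate spread and no read counts. Every difference given here is therefore a difference between 4 lists without an error or a test, the lists themselves do not give the depth behind them, and a base outside the peaks only means that no peak passed the authors' threshold there. By the library depths that the study's methods state, the sequenced reads of a region were most numerous for CGE, then CTX, then LGE and least for MGE. The lists held between 15384 peaks (MGE) and 19196 peaks (CGE) and covered between 24.5 and 32.9 Mb, with CTX second in both (18785 peaks, 31.2 Mb). Markers of the labeled regions were read as a check. The windows of *Emx1*, *Emx2* and *Neurog2*, pallial genes, were 14.7%, 19.3% and 22.9% covered in CTX and between 25.3% and 46.2% in the eminence lists, and the window of *Nkx2-1*, which specifies the MGE, was least covered in MGE, at 42.7%, while its start was 100% covered in all 4 lists. The window of *Lhx6*, an MGE interneuron gene, was 29.9% covered in MGE, above the 26.8% of LGE, although its start was 69.2% covered in MGE and 100% in the other lists. The windows of *Dlx1*, *Dlx2* and *Gsx2*, subpallial genes, were most covered in CTX, although *Dlx1* stood at 56.4% in CTX and 56.3% in CGE. The starts of these pallial and subpallial markers were less clear. In CTX the *Emx1* start was 87.1% covered and that of *Neurog2* 51.9%, each the lowest list, while the *Emx2* start was free in CTX, LGE and CGE. The *Dlx1* start was 100% covered in CTX and CGE, and that of *Dlx2* 41.7% in CTX and 44.8% in CGE. For *Gsx2* it was 90.6% in CTX and 90.3% in LGE and CGE.

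The promoters of the genes are shown, of which that of *Dmrta2* split CTX from the eminences most clearly. Each is the 300 bases from 250 before to 50 after the RefSeq start, on the plus strand of GRCm38.p6, with CpG dinucleotides in capitals. RefSeq's promoter table held 4 of the 5 genes. The *Dmrta2* sequence (chr4:109977775-109978074) lay outside every CTX peak and wholly under peaks in LGE, CGE and MGE, the *Dmrt3* sequence (chr19:25610287-25610586) lay wholly under a peak in MGE and outside the peaks of the other 3 lists, the *Dmrta1* sequence (chr4:89687948-89688247) lay wholly under a peak in all 4 lists, and the *Dmrt2* sequence (chr19:25672161-25672460) was 73.3% covered in CTX and 100% in each eminence list.
Dmrta2: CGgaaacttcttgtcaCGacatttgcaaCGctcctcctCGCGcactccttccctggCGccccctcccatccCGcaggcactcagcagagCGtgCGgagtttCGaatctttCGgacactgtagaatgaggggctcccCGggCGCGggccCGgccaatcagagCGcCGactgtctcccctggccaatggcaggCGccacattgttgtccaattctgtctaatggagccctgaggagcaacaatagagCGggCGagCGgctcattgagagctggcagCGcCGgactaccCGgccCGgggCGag
Dmrt3: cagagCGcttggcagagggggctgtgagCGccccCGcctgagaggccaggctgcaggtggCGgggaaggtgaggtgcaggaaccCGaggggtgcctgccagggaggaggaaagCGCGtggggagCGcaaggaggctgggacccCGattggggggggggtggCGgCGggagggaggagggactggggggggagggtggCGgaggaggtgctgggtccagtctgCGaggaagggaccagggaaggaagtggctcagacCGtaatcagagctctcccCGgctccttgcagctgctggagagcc
Dmrta1: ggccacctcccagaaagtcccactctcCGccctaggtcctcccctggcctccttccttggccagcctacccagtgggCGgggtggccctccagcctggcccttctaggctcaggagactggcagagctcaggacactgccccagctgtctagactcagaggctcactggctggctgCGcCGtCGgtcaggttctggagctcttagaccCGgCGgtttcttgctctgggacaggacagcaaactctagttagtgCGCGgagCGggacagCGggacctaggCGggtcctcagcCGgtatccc
Dmrt2: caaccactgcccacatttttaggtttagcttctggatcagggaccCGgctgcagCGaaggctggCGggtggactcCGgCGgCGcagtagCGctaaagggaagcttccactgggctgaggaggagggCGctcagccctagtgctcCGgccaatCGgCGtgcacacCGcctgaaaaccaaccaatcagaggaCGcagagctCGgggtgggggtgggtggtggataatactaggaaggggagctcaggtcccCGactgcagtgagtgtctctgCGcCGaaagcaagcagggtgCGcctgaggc
The *Dmrta2* promoter was the richest in CpG of these, with 26 in its 300 bases, a number that 16.9% of the 32851 promoters in the RefSeq table reached. The *Dmrt2*, *Dmrt3* and *Dmrta1* promoters held 18, 15 and 13, against a median of 7 over the table. The letters ACANTGT, where N is any base, form the core of the DNA palindrome known for DM domains and read the same on both strands. They occurred in the *Dmrta2* promoter as ACACTGT and as ACATTGT, beginning 137 and 55 bases before the start, and in none of the other 3 promoters, while 7.54% of all promoters in the table held at least 1 match.

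*Dmrta2*, which controls the size and patterning of the cortical primordium, showed the clearest contrast of the 5 genes. It lies on chromosome 4 (chr4:109978053-109983687, plus strand), with the antisense gene *Dmrta2os* starting beside it in the same window of 25635 bases. Of that window, 15.6% was under peaks in CTX, against 47.3% in LGE, 44.4% in CGE and 50.1% in MGE. CTX stood apart below 3 similar eminence lists, and the mean of the eminences minus CTX was 31.6 percentage points. Among the 12122 protein-coding genes with a peak in their window in at least 1 list, this difference ranked 3 from the top.

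At the start of *Dmrta2* the lists differed most. Within 2 kb either side of the annotated 5′ end, no base was covered in CTX, 64.2% was covered in LGE, 68.8% in CGE and 100% in MGE. The difference of 77.7 percentage points ranked 2 among the 8507 genes with a peak within 2 kb of the start. The gene body from 5′ to 3′ end was likewise free in CTX and 55.6% covered in LGE, 44.4% in CGE and 66.7% in MGE. The 2 kb upstream of the start were free in CTX and wholly covered in each eminence list.

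The peaks formed a pair of H3K27me3 domains, and CTX had a narrower peak in each. The first domain ran from 4.64 kb upstream of the start to 4.57 kb downstream when the 4 lists were joined, over the promoter, *Dmrta2os* and exons of *Dmrta2*. The second lay in the sequence past the 3′ end, from 5.71 to 10.2 kb after the start. In CTX, 1 peak of 1157 bases lay inside the first domain, 2.53 to 3.69 kb upstream of the start, and 1 peak of 2853 bases inside the second, so that both CTX peaks flanked the gene and neither touched it. CTX covered 12.6% of the first domain, against 83.5% in LGE, 75.5% in CGE and 91.2% in MGE. It covered 64.0% of the second, against 99.6%, 99.3% and 100% in the same order.

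By q-value, the peaks of CTX at *Dmrta2* were also the weaker ones. Their fold enrichment, a ratio to background, was higher than in the eminences and is given among the other observations. MACS, the peak caller, gives each peak the −log10 of a q-value, and a peak is called stronger below where this value is larger. In the first domain the strongest peak had a −log10 q of 4.63 in CTX, against 42.8 in LGE, 48.1 in CGE and 23.4 in MGE. Because this value grows with depth, each peak was also ranked within its own list: these peaks stood at the 56.0, 90.7, 89.8 and 89.2 percentile of their lists. In the second domain the order was alike, with the 53.3 percentile in CTX and 95.0, 93.9 and 95.1 in the eminences. A peak in the middle of the CTX list thus stood where each eminence list had one of its strongest.

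The eminences differed from each other in 1 respect at *Dmrta2*. The peak over the start was a single block of 8397 bases in MGE, whereas in LGE and CGE it broke off 0.50 and 0.68 kb after the start and resumed at 1.93 kb in both, with a weaker second piece of −log10 q 8.81 and 6.98. All 3 left a gap over the end of the last exon, between the first and the second domain.

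**Figure D1:**
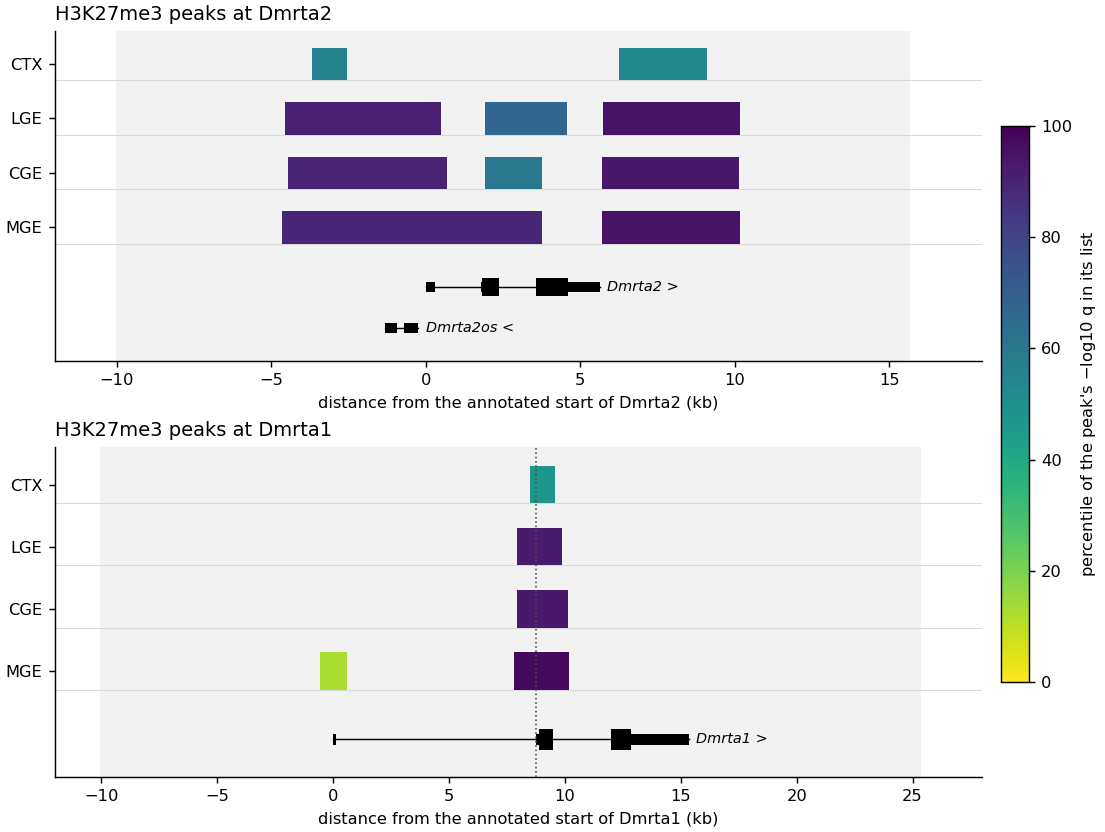
H3K27me3 peaks of the 4 region lists at *Dmrta2* (top) and *Dmrta1* (bottom), by distance from the annotated start in kb; each bar is 1 peak, its color gives the percentile of its −log10 q in its own list, the gray field is the gene window, black blocks below are exons (taller where coding), > and < give the strand, and the dotted line is the RefSeq start of *Dmrta1*. At *Dmrta2* the CTX list has 2 peaks that flank the gene, where the eminence lists have blocks over the start and past the 3′ end; at *Dmrta1* all 4 lists have a peak at the RefSeq start, which is narrowest in CTX.

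*Dmrt3*, which shares the medial and caudal cortical expression of *Dmrta2*, followed the same direction over more separate peaks. It lies on chromosome 19 (chr19:25610301-25623921, plus strand), 5.97 kb past the end of *Dmrt1* and 48.5 kb before *Dmrt2*. Its window was 12.5% covered in CTX, against 33.5% in LGE, 33.4% in CGE and 49.3% in MGE, with LGE and CGE almost equal between the extremes. The eminence mean was 26.3 percentage points above CTX, rank 7 among the 12122 genes.

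Around the start of *Dmrt3* the 4 lists were spread out rather than split. Of the 4 kb centered on the 5′ end, 20.3% was covered in CTX, against 51.2% in LGE, 34.8% in CGE and 83.7% in MGE. In CTX this was 1 peak of 1777 bases beginning 1.19 kb after the start, with a −log10 q of 1.75, at the 18.4 percentile of its list. Restricted to peaks with q under 0.001, the CTX share at the start was 0%, and the 3 eminence shares did not move. In MGE a block of 6734 bases reached from 1.35 kb before the start to 5.39 kb after it, while LGE and CGE each had 1 piece on either side of the start and left the start itself open.

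Away from the start, the 3′ end of *Dmrt3* was the part with the sharpest difference. An eminence domain of 4127 bases over the last exon and beyond, 11.9 to 16.0 kb after the start, was 97.5% covered in LGE, 98.6% in CGE and 98.4% in MGE. In CTX it was 8.94% covered, by 1 peak of 369 bases. Between *Dmrt1* and *Dmrt3*, an intergenic domain of 2556 bases was 50.6% covered in CTX and at least 99.0% in each eminence list. Its −log10 q was 4.83 in CTX, against 40.2 in LGE, 36.7 in CGE and 18.2 in MGE, so the strongest CTX peak near *Dmrt3* lay here, at the 57.3 percentile of its list.

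*Dmrta1*, the close paralog of *Dmrta2*, differed in the strength of a single peak rather than in its presence. The gene lies on chromosome 4 (chr4:89679436-89694772, plus strand), and 3.10% of its window was covered in CTX, against 5.51% in LGE, 6.25% in CGE and 10.0% in MGE. In CTX, LGE and CGE all of this was 1 peak over the first coding exon, and MGE had a second peak of 1170 bases at the GENCODE 5′ end. The width of the exon peak was 1095 bases in CTX, against 1947 in LGE, 2210 in CGE and 2363 in MGE. Its −log10 q was 3.53 in CTX, against 51.3 in LGE, 66.4 in CGE and 48.1 in MGE. Within the lists this put it at the 47.6 percentile in CTX and at the 93.0, 93.5 and 97.6 percentile in the eminences, so that a peak below the median of the CTX list was among the strongest of the other 3.

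The start of *Dmrta1* depended on the annotation. The GENCODE 5′ end lies 8762 bases upstream of the RefSeq start, and the shared peak covers only the latter. Around the GENCODE end CTX, LGE and CGE had no peak, and MGE had 29.3% of the 4 kb under 1 weak peak (−log10 q 1.55, the 12.5 percentile of its list). Around the RefSeq start, an alternative chosen after the peaks were seen, 27.4% was covered in CTX, against 48.7% in LGE, 55.3% in CGE and 59.1% in MGE, so the difference between the eminence mean and CTX went from 9.75 to 26.96 percentage points.

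*Dmrt1*, the gonadal gene of the cluster, had the strongest CTX peak of the 5 genes and no comparable contrast at it. The gene spans chr19:25505618-25604329 on the plus strand, and the 4 kb around its 5′ end were 90.6% covered in CTX, against 74.9% in LGE, 91.6% in CGE and 91.1% in MGE. LGE was the low list here, since its peak ended 1.35 kb after the start and those of the others reached between 2.58 and 2.93 kb. The CTX peak had a −log10 q of 32.6, at the 88.4 percentile, close to the eminences at 90.3, 92.3 and 89.0.

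Over the whole *Dmrt1* window the shares were 8.06% in CTX, against 9.97% in LGE, 11.7% in CGE and 15.3% in MGE. The difference lay at the end next to *Dmrt3*, where the windows of both genes share 14029 bases. In the shared bases CTX was 27.3% covered, LGE 51.6%, CGE 51.1% and MGE 79.6%. In the remaining 104683 bases of the *Dmrt1* window, a division made after the peaks were seen, CTX stood at 5.48%, between LGE at 4.39% and CGE and MGE at 6.45% and 6.73%, so *Dmrt1* was no longer lowest in CTX. *Dmrt3* kept its direction in the bases of its own, with 1.88% in CTX, against 20.5% in LGE, 20.8% in CGE and 27.7% in MGE.

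*Dmrt2*, the somite gene, had nearly equal shares in the 4 lists. The gene lies at chr19:25672411-25678991 on the plus strand with the antisense gene *2610016A17Rik* at its start, and its window was 35.5% covered in CTX, against 34.4% in LGE, 36.1% in CGE and 36.9% in MGE. Each list had 2 peaks there, 1 upstream and 1 from the start into the gene, between 4516 and 5121 bases wide. The 4 kb around the start were 64.3% covered in CTX, against 66.8% in LGE, 67.9% in CGE and 67.8% in MGE. The peak over the start stood at the 84.0 percentile in CTX and at 86.3, 83.4 and 82.8 in the eminences. Its CTX peak was thus as strong within its list as the others, 48.5 kb from a gene whose CTX peaks were weaker by −log10 q. The fold enrichment at that gene, *Dmrt3*, is given among the other observations.

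**Figure D2:**
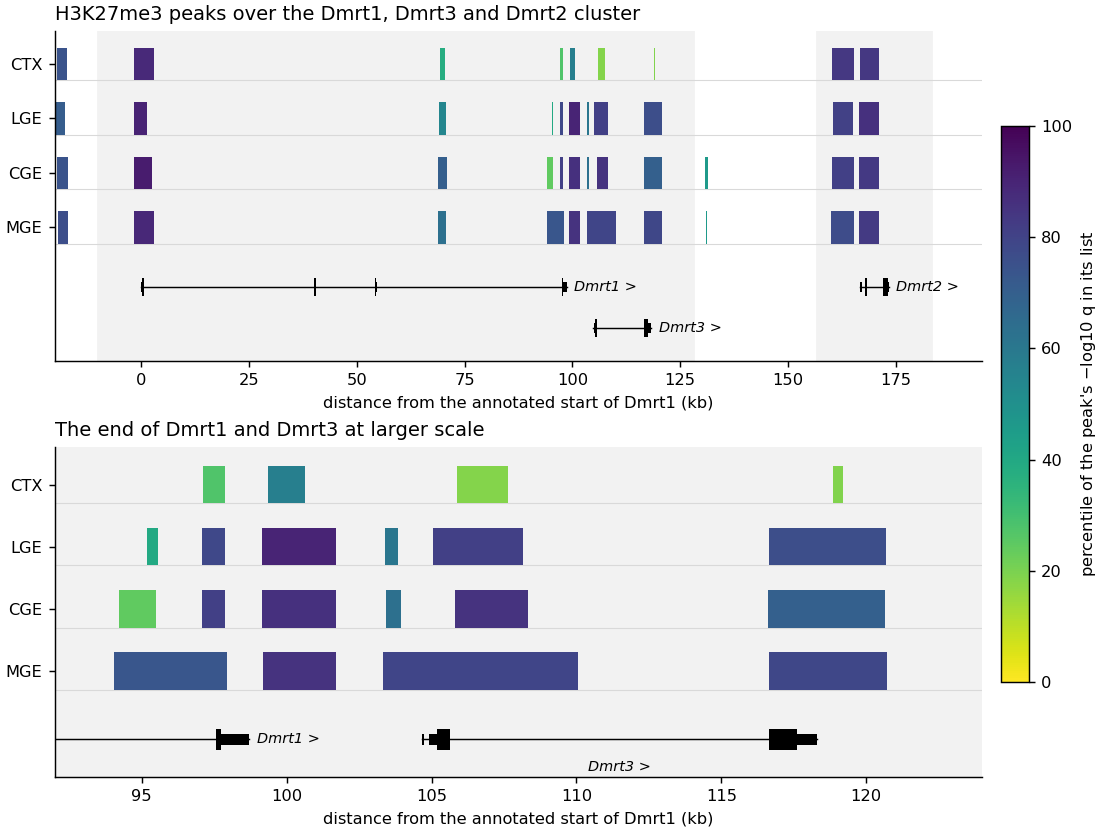
H3K27me3 peaks of the 4 region lists over the cluster of *Dmrt1*, *Dmrt3* and *Dmrt2* on chromosome 19 (top) and over the end of *Dmrt1* and *Dmrt3* alone (bottom), by distance from the annotated start of *Dmrt1* in kb; bars, colors, gray fields and gene models are drawn as for *Dmrta2*. The blocks at *Dmrt2* are alike in the 4 lists, and the block at the start of *Dmrt1* is shorter in LGE. Those around *Dmrt3* are narrow and weaker by −log10 q in CTX and broad in the eminences.

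Side by side, 4 of the 5 windows, all but that of *Dmrt2*, had a smaller share under peaks in CTX than in each eminence list, against 17.2% of all genes with a peak. No window had a larger share in CTX than in each eminence list, against 30.1% of the genes. By at least 10 percentage points in every eminence list, *Dmrt3* and *Dmrta2* were lower in CTX in the window (2 of 5, against 0.247% of the genes) and at the start (2 of 5, against 5.24%). *Dmrta2* was the 1 gene of the 5 whose start was free of peaks in CTX and at least 50% covered in each eminence list, as 0.129% of the genes were, 11 in all, and none showed the reverse, as 0.141% of the genes did. These shares are the background only, since the same contrast chose the genes. With the bases that the windows of *Dmrt1* and *Dmrt3* share left out, or with a flank of 0 or 2 kb instead of 10 kb, 3 of the 5 windows were lower in CTX (*Dmrt3*, *Dmrta1* and *Dmrta2*).

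**Figure D3:**
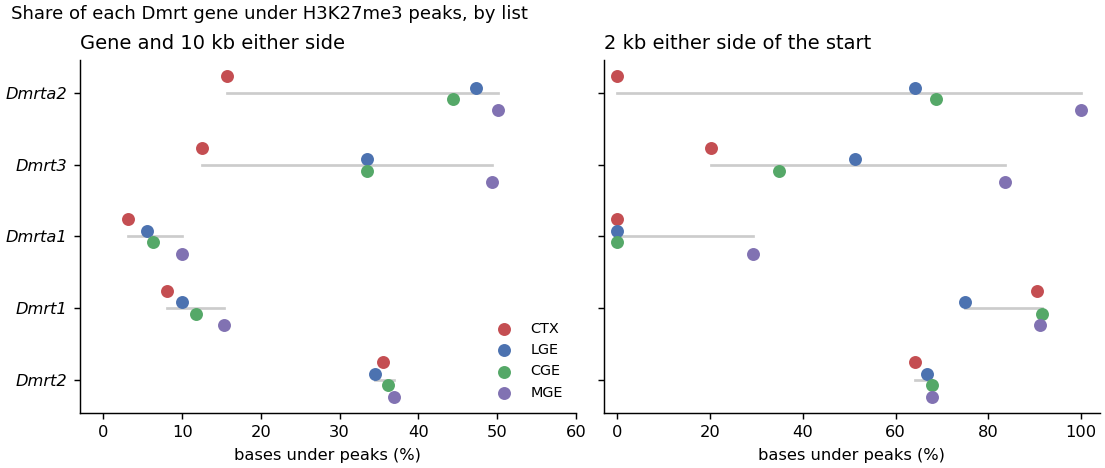
Percent of bases under H3K27me3 peaks for each of the 5 *Dmrt* genes, in the gene window (left) and within 2 kb of the annotated start (right); each dot is 1 merged region list, with no error because replicates were merged, and the gray line spans the 4 lists. For *Dmrta2* the CTX dot stands at 15.6% and 0%, away from the eminence dots, while the 4 dots of *Dmrt2* lie within 34.4% to 36.9% and 64.3% to 67.9%.

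Joined where they overlap, the 5 windows spanned 225857 bases, of which 10.8% was covered in CTX, against 17.3% in LGE, 18.2% in CGE and 22.1% in MGE. CTX was lowest and its list was the second largest, and MGE was highest and its list was the smallest. How list size bears on these shares was not tested. The difference between the eminence mean and CTX was 8.36 percentage points. CTX had 11 peaks in these windows with a median width of 1294 bases, LGE 14 with 2817 bases, CGE 14 with 2517 bases and MGE 12 with 4259 bases. In CTX, 5 of the 11 peaks ranked below the median of their list by q, and in each eminence list 1 did.

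The order of the eminences was not the same for the 5 genes. MGE had the largest share in all 5 windows, a count for which the share of all genes was not computed. CTX, then LGE, then both CGE and MGE was the order for *Dmrt1* and *Dmrta1* (2 of 5, against 7.81% of all genes). For *Dmrta2* and *Dmrt3* LGE was slightly above CGE, by 47.3% against 44.4% and by 33.5% against 33.4%. LGE borders the pallium, and alone against CTX it was higher in the same 4 windows, again without a share over all genes computed.

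The CTX peaks were nested in those of the eminences. Of the 24473 bases under CTX peaks in the 5 windows, 0 lay outside the eminence peaks, whereas 23.3% of all bases under CTX peaks lay in no eminence list. The genes were chosen on the contrast of CTX with the eminences, so the nesting is a description of them only. Covered sequence was rich in CpG. The 22.5 kb covered in all 4 lists held 32.3 CpG per kb and the 14.7 kb covered in the 3 eminence lists and not in CTX held 37.3 per kb, while the 174.9 kb covered in no list held 12.2 per kb. The domain over the *Dmrta2* start, with 51.9 CpG per kb, was the densest of the 12 domains that the joined lists gave. Taken over all windows together, sequence covered in the eminences alone was thus no poorer in CpG than sequence covered in all 4 lists. The windows differed in this. Sequence covered in the eminences alone was richer in CpG at *Dmrta2* and *Dmrt2*. It was poorer at *Dmrta1* and in the joined window of *Dmrt1* and *Dmrt3*. How CpG content bears on the peaks was not tested.

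**Figure D4:**
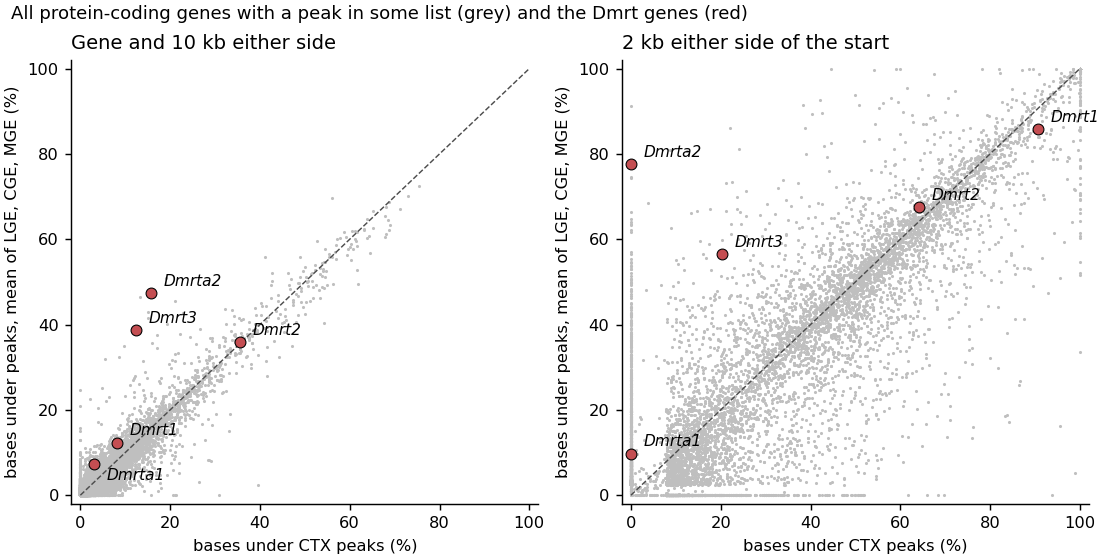
Percent of bases under CTX peaks (horizontal) against the mean percent under LGE, CGE and MGE peaks (vertical), for the gene window (left, 12122 genes) and 2 kb either side of the start (right, 8507 genes); gray dots are protein-coding genes with a peak in some list, red dots the *Dmrt* genes, and the dashed line marks equal shares. *Dmrta2* and *Dmrt3* stand far above the line in both panels, and *Dmrt2* lies close to it.

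Outside the windows, the neighborhood of *Dmrta2* also lacked CTX peaks. In the 200 kb beyond its window on either side, a stretch chosen after the peaks were seen, CTX had no peak, LGE 2 (2460 bases), CGE 3 (6441 bases) and MGE 5 (8717 bases). This pattern, free in CTX and covered in each eminence list, held for 1.28% of the 18622 genes with any peak in such a stretch. The window of *Faf1*, the nearest gene upstream of *Dmrta2* at 14.1 kb, was free of peaks in CTX and 1.23% covered in LGE, 1.00% in CGE and 3.66% in MGE. With its flank this window overlaps that of *Dmrta2* and takes in the outer edge of the first *Dmrta2* domain, so these shares are not separate from it. *Dmrta1* showed no such pattern, with 3 peaks in CTX (4435 bases), 2 in LGE (2067 bases), 2 in CGE (3347 bases) and 1 in MGE (1829 bases).

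Other genes of cortical patterning were read from lists of names that were drawn up with results of these data known. Of 10 pallial transcription factors, which together give the dorsal telencephalon its identity, 8 windows were lower in CTX than in each eminence list and 1 was higher, directions that 17.2% and 30.1% of all genes showed. Their median difference of the eminences minus CTX was 12.7 percentage points, against −0.02 over all 12122 genes. The largest differences were those of *Zic5*, at 33.2, and *Zic2*, at 31.8, zinc-finger genes of the dorsal midline. *Nr2f1*, a regulator of cortical areas, stood at −3.05, with 31.3% covered in CTX, against 27.5% in LGE, 23.4% in CGE and 33.9% in MGE, so that CTX lay between the eminence lists.

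Of the 6 genes of pallial neurogenesis, 4 were lower in CTX than in each eminence list and 1 was higher. *Hes1*, a Notch target that keeps progenitors dividing, had the largest difference at 26.4 percentage points, and *Neurog2*, the proneural factor of cortical progenitors, came next at 19.7. The *Hes1* start did not share this difference, with 16.85% covered in CTX, against 15.5% in LGE, 23.2% in CGE and 13.3% in MGE. *Neurod1*, a factor of young neurons, had the lowest at −3.87, and *Tbr1*, a factor of early cortical neurons, followed at 1.82. Of the 10 genes of the hem and dorsal midline, the tissue that *Dmrta2* helps to set up, 3 were lower in CTX and 1 was higher, with a median of 0.58. Here *Wnt8b*, a hem ligand, stood out at 15.4, followed by *Bmp7* at 2.05, and *Msx1* and *Bmp4* were the lowest at −5.19 and −0.35.

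The subpallial fate genes, some of which the *Dmrt* factors are known to hold back in the cortex, lay on the other side. Of 6, none was lower in CTX and 4 were higher (*Gsx2*, *Dlx1*, *Dlx2* and *Olig2*), with a median of −5.38 percentage points. *Olig2*, at −13.9, and *Gsx2*, at −12.4, had the lowest values, and *Gsx1*, at 2.59, and *Nkx2-1*, at −1.65, the highest. *Gsx2* was 61.8% covered in CTX, against 48.4% in LGE, 57.7% in CGE and 42.3% in MGE, so the gene and *Dmrta2* had opposite orders of CTX and MGE.

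Of 6 other genes with *Dmrt* names, drawn as other DM-domain genes, 3 had any peak in their window. None was lower or higher in CTX than in each eminence list. Whether each of the 6 encodes a DM domain was not checked. *Dmrtb1*, a germ cell gene, had the largest difference at 3.16 percentage points, with peaks in LGE and CGE alone, and *Dmrtc2* followed at 1.80. *Dmrtc1a*, *Dmrtc1b* and *Dmrtc1c1* had no peak in any list.

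**Figure D5:**
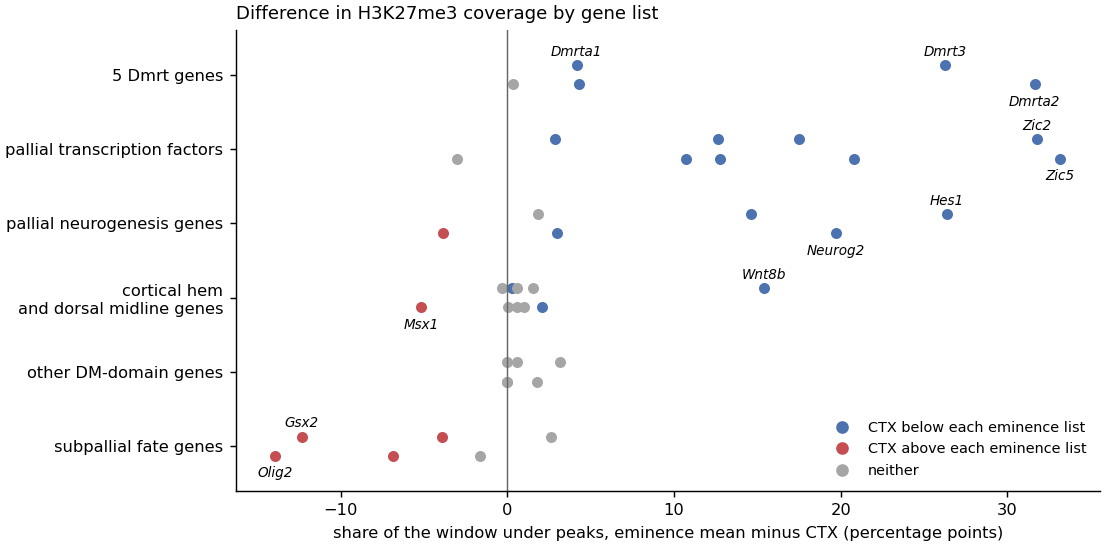
Difference in the share of the gene window under H3K27me3 peaks, mean of LGE, CGE and MGE minus CTX in percentage points, for the 5 *Dmrt* genes and 5 lists of related genes; each dot is 1 reported gene, blue where CTX is below each eminence list, red where it is above each and gray otherwise. Dots of the pallial lists reach from −3.87 to 33.2, with *Dmrta2* at 31.6 and *Dmrt3* at 26.3, and the subpallial list lies between −13.9 and 2.59.

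Genes most like each *Dmrt* gene were sought by the Euclidean distance between the 4 shares in the 20 kb centered on the start, over the 4 lists alone. For *Dmrta2*, with 20.1% in CTX, against 59.8% in LGE, 56.2% in CGE and 63.4% in MGE, these were *Zic2* (distance 10.1), *Fezf2* (16.7) and *Ostm1* (19.5). For *Dmrt3* they were *Sp8* (14.1), *Zic5* (15.8) and *Hoxb4* (16.2). *Dmrta1* was near to *Svil* (2.00), *Fam181b* (3.45) and *Prrg4* (3.57), *Dmrt1* to *Lonrf3* (1.72) and *Zfp800* (2.90), and *Dmrt2* to *Tbx1* (2.91) and *Adamtsl5* (3.20). The distances were larger for *Dmrta2* and *Dmrt3* than for the other 3 genes.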

How the data were processed

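H3K27me3 CUT&Tag was done on nuclei of CTX, LGE, CGE and MGE. Per the study's methods and processing notes, the authors aligned reads to GRCm38 (mm10) with Bowtie2, removed blacklisted reads and, with Picard, duplicates, merged the samples of each region with SAMtools and called broad peaks with MACS, and deepTools served for quality control; versions are not given in the sources used here. The deposited lists give each peak's position, a score (not used), a fold enrichment, which is a ratio to background and is given only as a value among the other observations, and the −log10 of a p-value (not used) and of a q-value.

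Groups are the regions that the labels name. With Python 3.11.15, numpy 2.4.6 and pysam 0.24.0, the percent of bases under peaks was computed for every protein-coding gene of GENCODE M21 (GRCm38), over the gene and 10 kb either side and over 2 kb either side of its 5′ end; genes with no peak in any of the 4 lists were left out of ranks. The computation was tested on simulated data. Sequences came from RefSeq (GRCm38.p6). The members and gene lists were chosen with earlier results of these data known. Named genes were the 5 members, genes in or beside their windows, 5 fixed lists of which those with the 2 largest and 2 lowest differences are given, and the 3 genes nearest by their 4 shares. Of the genes that these rules name, 3 are not reported here; the counts and medians of a list include every listed gene. The 4 lists carry no replicates, so nothing was tested. Broad peaks are joined from neighboring enriched stretches, so a share counts called sequence and not the amount of mark, and a more deeply sequenced list can hold wider peaks.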

Additional observations from a re-analysis of the deposited data

How the results depend on the processing

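No paired analysis was possible because the samples of a region were merged before peaks were called, and for the same reason no replicate could be left out. The number of windows lower in CTX was 3 or 4 in all 9 alternatives run, and the *Dmrta2*, *Dmrt3* and *Dmrta1* window differences stayed above 0 in each alternative run for them. The RefSeq start of *Dmrta1* and the windows without shared bases were added after seeing the data. The difference over the 5 windows (8.36 points) was 9.83 with q under 0.001, 11.03 with peaks less than 3 kb apart joined, 10.0 with equal covered bases, 6.81, 9.41 and 6.24 with flanks of 0, 2 and 20 kb, and 6.47 with LGE alone. The *Dmrta2* start difference (77.7) was 100 with joined peaks and in the 2 kb upstream, 39.8 over 10 kb either side and 64.2 with LGE alone. Promoters free in CTX and marked in the eminences (11) numbered 36 with q under 0.001, 20 with joined peaks, 18 with equal numbers of peaks, 47 with equal covered bases, 21 in the 2 kb upstream, 0 over 10 kb either side and 225 with any covered base as the mark. The reverse (12) numbered 30, 21, 13, 12, 26, 0 and 685 in that order. The *Dmrt2* window difference (0.32) turned to −0.17 with joined peaks, −0.95 without a flank and −1.05 with LGE alone. The cause of these changes was not tested. Depth cannot be read from the lists, and how it bears on the width and q of single peaks was not tested.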

Other observations

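The peak over the first coding exon of *Dmrta1* had the highest fold enrichment of the 5 genes in each of the 4 lists. It stood at 5.65 in LGE, 4.79 in CGE and 4.19 in MGE, against 3.31 in CTX. The broad blocks at *Dmrta2* had a fold enrichment between 1.31 and 2.14 in the eminences, below the 2.45 and 2.20 of the 2 narrow CTX peaks there, although their −log10 q was higher. The medians over all peaks were 2.73 in CTX, against 2.98 in LGE, 2.71 in CGE and 2.99 in MGE.

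The gene next to the cluster on the *Dmrt1* side, *Kank1*, a regulator of the cytoskeleton 71.1 kb away, was covered at its start by 48.4% in CTX, against 53.8% in LGE, 72.3% in CGE and 49.8% in MGE. *Smarca2*, a chromatin remodeler 926 kb away on the far side of *Dmrt2*, had 27.9%, 27.3%, 23.5% and 27.7% in the same order. Neither start was free of peaks in CTX.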
